A study of Mus musculus with 22 samples.

Results

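Lungs of the OVA arm were compared with lungs of the saline arm when the mice of both arms had received particulate matter (PM). The comparison used 10 of the 22 libraries of the series, 5 in each arm, which were chosen by their labels and joined by gene symbol. Ovalbumin (OVA) is a chicken egg protein used as an allergen in mice, and the PM came from a goat farm. The OVA arm with PM is labelled C57BL/6, sensitization OVA and challenge PM 3 µg, and the saline arm with PM is labelled C57BL/6, sensitization saline and challenge PM 3 µg. The sources used here name no genetic change and no age. The extraction protocol writes of OVA/Sal and OVA/OVA mice, so that saline may stand for sensitisation or for a later dose in sensitised mice, and neutral names, saline arm and OVA arm, are used here. Nothing in the labels ties each library to an animal of its own, and the p-values then measure only the spread between these libraries, which may be technical. RNA was taken from lobes of the right lung, polyadenylated RNA was selected, and the deposited values were read counts per gene.

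In allergic airway disease, helper T cells and innate lymphoid cells release interleukins 4, 5 and 13. Interleukin 13 acts through the transcription factor STAT6 on airway epithelium, which forms mucus-secreting goblet cells, and on macrophages, which turn to alternative activation. Interleukin 5 and the eotaxins bring eosinophils into the tissue, and B cells mature into plasma cells that secrete IgE and other antibodies.

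Surfactant and other lung genes were abundant in the 10 libraries. Sftpc, the surfactant protein gene of alveolar type 2 cells, ranged from 27743 to 40942 CPM (read counts scaled to a common library size, with trimmed means of M values between libraries), Scgb1a1 of club cells from 14664 to 41978 CPM, and Cdh5 of endothelium from 180.4 to 359.7 CPM. Library depth ran from 0.302 M to 28 M counts, and the median was 10.3 M in each arm. The OVA arm held the shallowest pair, replicate 4 with 0.302 M and replicate 5 with 1.13 M counts. A count of 0 allows a level of up to 9.92 CPM in replicate 4 and 2.66 CPM in replicate 5, by the rule of 3 counts, which covers counting error only.

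Replicate 4 of the OVA arm stood apart from the other 4 OVA libraries. The 14 mucous and goblet cell genes of a list summed to 619.7 CPM in it, within the 120.7 to 687.8 CPM of the saline libraries and far below the 4893 to 9113 CPM of the other OVA libraries. Eosinophil genes (170.5 CPM) also lay within the saline range, and plasma cell genes (941.0 CPM) lay below the lowest saline library (1171 CPM). In the same library, monocyte and interstitial macrophage genes (2364 CPM), MHC class II genes (6289 CPM), B cell genes (623.0 CPM) and mitosis genes (236.1 CPM) lay above each of the saline libraries. A set of 109 genes was taken from among those higher in the OVA arm by more than 1 on the log2 scale in the libraries without PM. Their median difference from the saline arm with PM was 0.46 in replicate 4, 0.96 to 1.56 in the other OVA libraries, and -0.27 to 0.20 in the saline libraries, each of these set against the other saline libraries. For a set of 8 genes lower without PM, the median was -0.31 in replicate 4, near the -0.28 of replicate 1 of the saline arm. It was -1.54 to -0.72 in the other OVA libraries and -0.28 to 0.25 in the saline libraries. Values without replicate 4 are given beside some of the results that it affects, and not beside all of them.

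**Figure D1:**
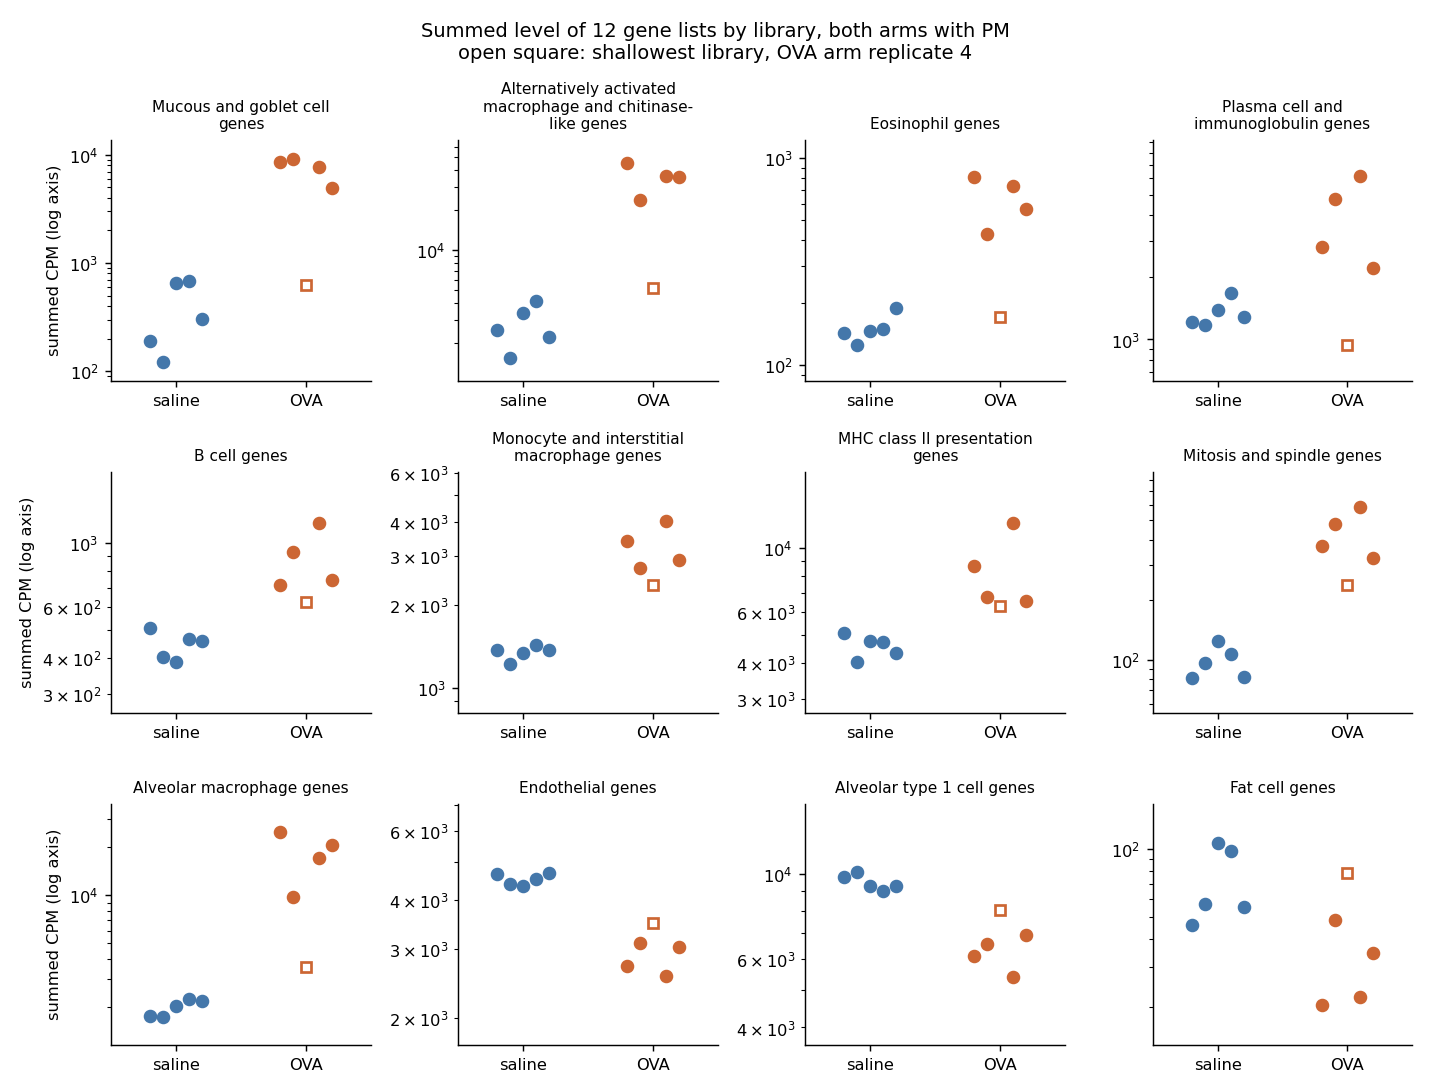
Summed level of 12 gene lists in each library, in CPM on a log axis, for the saline arm and the OVA arm, both with PM; points are libraries, and the open square is replicate 4 of the OVA arm. In the panels of mucous, eosinophil and plasma cell genes the square lies within or below the saline points, and in the panels of B cell, monocyte, MHC class II and mitosis genes it lies above them.

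Of 14250 genes tested, 1880 were higher in the OVA arm (13.2%) and 1364 were lower (9.57%), 22.8% in all, by edgeR's quasi-likelihood test at an adjusted p of 0.05. Past a log2 fold change of 1 there were 501 genes higher and 91 lower. The levels of the arms did not overlap in 1788 genes (12.5%), of which 963 lay above the saline libraries in every OVA library (6.76%) and 825 below (5.79%). The counts of list members below stand against these shares over all tested genes. The median log2 fold change of all tested genes was -0.01. Scaling by library totals alone moved the share of higher genes among the called from 58% to 44% and that median to -0.08. In bulk tissue, a change in the number of cells of a type and a change in RNA per cell cannot be told apart.

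Mucus genes rose together. All 12 tested genes of the mucous list were called higher, with a median log2 fold change of 2.14, and they were called likewise without both libraries under 2 M counts. The arms overlapped in 11 of the 12, with Clca1 as the exception, and without replicate 4 they overlapped in Creb3l1 alone.

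Clca1, a secreted regulator of mucous cells, stood at 7141, 7785, 413.1, 6234 and 4124 CPM in the OVA libraries (replicates 1, 2, 4, 5 and 6, the order kept below) and at 56.7, 12.8, 355.1, 389.7 and 143.0 CPM in the saline libraries (replicates 1, 2, 3, 5 and 6, likewise). Replicate 4 lay just above the highest saline library, and the other OVA libraries lay far above it. Clca1 had a log2 fold change of 4.76 ± 0.78 (SE, adjusted p = 0.000263, edgeR), and 5.05 without replicate 4.

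Muc5ac, the inducible gel-forming mucin of the airways, stood at 139.5, 163.0, 9.84, 160.5 and 91.3 CPM in the OVA libraries and at 2.22, 1.90, 9.53, 10.3 and 3.90 CPM in the saline libraries. Replicate 4, with 3 counts, fell among the saline libraries, and the other 4 OVA libraries were above them. The log2 fold change of Muc5ac was 4.44 ± 0.37 (SE, adjusted p = 8.66e-07, edgeR), and 4.53 without replicate 4. Muc5b, the mucin that airways also make at rest, changed less, with 174.6 ± 59.6 CPM (SD, n = 5) in the OVA arm and 64.0 ± 31.8 CPM (SD, n = 5) in the saline arm, a log2 fold change of 1.57 ± 0.26 (SE, adjusted p = 0.000328, edgeR).

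The remaining mucous genes included products and regulators of secretion. Itln1, the lectin intelectin, had a log2 fold change of 4.47, Fcgbp, a mucus protein, 3.45, and Tff2, a trefoil peptide, 2.28. Slc26a4, the anion exchanger pendrin, stood at 297.2, 221.0, 16.4, 320.0 and 174.4 CPM against 37.0, 15.4, 36.1, 68.7 and 15.4 CPM, with a log2 fold change of 2.67 ± 0.39 (SE, adjusted p = 0.000108, edgeR). The transcription factors of goblet cell formation were far lower in level. Foxa3 had 4.45 ± 2.70 CPM against 1.34 ± 0.720 CPM (SD, n = 5 each), and Spdef 14.5 ± 7.45 CPM against 5.01 ± 2.35 CPM, with log2 fold changes of 2.0 and 1.79. Agr2, a folding enzyme of mucins, rose by 1.98 and Galnt12, which attaches sugars to them, by 0.81. Creb3l1, a secretory pathway factor, had the smallest change of the list, at 0.62. Of the list's members below the expression filter, Tff1 held 157, 70, 0, 6 and 62 counts in the OVA libraries and 8 in all in the saline libraries, and it was called in a fit with no filter (log2 fold change 5.69, adjusted p = 1.14e-07, edgeR).

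Capn9, a calpain of digestive tract epithelium, was among the 10 largest rises whose arms did not overlap. Its levels were 27.2, 30.1, 9.84, 34.6 and 14.9 CPM in the OVA libraries and 0.523, 0.0951, 2.60, 2.08 and 0.797 CPM in the saline libraries. Replicate 4 was the lowest OVA library and above the saline libraries, though its level rests on few counts. Capn9 had a log2 fold change of 4.27 ± 0.37 (SE, adjusted p = 9.09e-07, edgeR). The gene passed the expression filter only through its levels in the OVA libraries. Its test and lack of overlap are therefore description only.

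The promoters of the 10 largest rises and the 10 largest falls among genes at 1 CPM or more with no overlap of the arms were searched for TTC and GAA with 4 bases of any kind between them, the spacing bound by STAT6, and for TTC and GAA with 3 bases between them, the spacing bound by other STAT factors. Each motif reads the same on both strands, and no match of one spacing is a match of the other. A RefSeq window (GRCm38.p6, 250 bases before to 50 after the gene start) was found for 8 of the 10 rises and 9 of the 10 falls. The wider motif was in 1 of the 8 windows of rises (12.5%) and 0 of the 9 of falls, against 6.99% of 27025 promoter windows and 5.23% of the 10840 windows of tested genes. The narrower motif was in 1 window of rises (12.5%) and 2 of falls (22.2%), against 8.47% of all windows and 7.17% of those of tested genes. The windows of Capn9 (chr8:124575861-124576160, plus strand), Chil3 (chr3:106167515-106167814, minus strand) and Asgr1 (chr11:70053874-70054173, plus strand), a rise with each motif and a fall, are shown with the motif in capitals.
Capn9: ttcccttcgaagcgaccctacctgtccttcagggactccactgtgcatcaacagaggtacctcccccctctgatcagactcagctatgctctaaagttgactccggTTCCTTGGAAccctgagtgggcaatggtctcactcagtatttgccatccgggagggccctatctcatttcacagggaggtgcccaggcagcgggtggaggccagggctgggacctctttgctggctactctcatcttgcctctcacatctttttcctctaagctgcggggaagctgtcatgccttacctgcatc
Chil3: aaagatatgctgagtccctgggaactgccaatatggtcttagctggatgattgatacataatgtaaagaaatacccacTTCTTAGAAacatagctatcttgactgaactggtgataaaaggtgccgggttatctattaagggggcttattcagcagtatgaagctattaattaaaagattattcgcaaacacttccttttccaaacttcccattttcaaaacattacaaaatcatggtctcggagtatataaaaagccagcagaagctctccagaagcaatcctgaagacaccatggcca
Asgr1: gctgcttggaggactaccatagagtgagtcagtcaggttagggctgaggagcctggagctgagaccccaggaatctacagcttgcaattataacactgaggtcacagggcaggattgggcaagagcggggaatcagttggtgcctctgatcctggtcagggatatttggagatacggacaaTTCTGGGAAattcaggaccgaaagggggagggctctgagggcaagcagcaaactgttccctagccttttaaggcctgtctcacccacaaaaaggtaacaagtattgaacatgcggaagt
A match in these windows is a description of the letters only.

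Genes of alternatively activated macrophages and chitinase-like proteins rose in 11 of 12 cases, with a median log2 fold change of 2.87. Chil3, the chitinase-like protein Ym1, stood at 23617, 8386, 2272, 16048 and 19142 CPM in the OVA libraries and at 615.8, 634.2, 883.9, 1122 and 1049 CPM in the saline libraries. Every OVA library was above every saline library, and replicate 4 was the lowest of them. The log2 fold change was 4.01 ± 0.44 (SE, adjusted p = 7.86e-06, edgeR), and 4.29 without replicate 4.

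Chil4, the related Ym2, had the largest log2 fold change among the genes of these lists, at 6.10 ± 0.69 (SE, adjusted p = 1.07e-05, edgeR). It stood at 1624, 1070, 13.1, 1221 and 618.8 CPM against 5.23, 2.57, 9.24, 30.1 and 14.9 CPM, so that replicate 4 lay within the saline range. Chil3 and Chil4 have near-identical sequences, and the counting may have split their reads, so that the level of each is uncertain. Retnla, the secreted resistin-like molecule alpha, has family members too, and some of its reads may have been shared with them. It stood at 16231, 12967, 2026, 15166 and 13582 CPM against 1390, 475.2, 1948, 2358 and 677.2 CPM. Replicate 4 was again inside the saline range, and the log2 fold change was 3.13 with it and 3.40 without it (adjusted p = 0.000137 and 1.51e-05, edgeR).

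Ccl8, a chemokine made by macrophages, separated the arms in all libraries. It stood at 606.8, 496.1, 334.4, 746.7 and 409.1 CPM in the OVA libraries and at 23.7, 11, 40.7, 36.1 and 19.7 CPM in the saline libraries. The lowest OVA library, replicate 4, was far above the highest saline library. Ccl8 had a log2 fold change of 4.36 ± 0.29 (SE, adjusted p = 1.07e-07, edgeR).

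Of the enzymes in the group, Arg1, the arginase of alternatively activated macrophages, had a log2 fold change of 3.13, and Mmp12, macrophage elastase, 3.31. Pdcd1lg2, which encodes the PD-1 ligand PD-L2, had 2.61, Trem2, a lipid receptor of macrophages, 2.23, and Mrc1, the mannose receptor, 0.85. Arg1 and Mmp12 spanned wide ranges within the OVA arm. Arg1 ran from 9.84 CPM in replicate 4 to 156.6 CPM in replicate 5, and Mmp12 from 124.6 to 1686 CPM in the same libraries. Chia1, the acidic chitinase, stood at 2141, 1115, 259.0, 2333 and 1474 CPM against 136.5 to 223.2 CPM, with no overlap and a log2 fold change of 3.09 ± 0.36 (SE, adjusted p = 1.31e-05, edgeR). Fbp1, an enzyme of gluconeogenesis, had a log2 fold change of 3.07 and Corin, the protease that processes natriuretic peptides, 3.31. Alox12e, a lipoxygenase first known from mouse epidermis, had 2.74, and replicate 4 was its highest OVA library at 16.4 CPM, a level that rests on few counts.

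**Figure D2:**
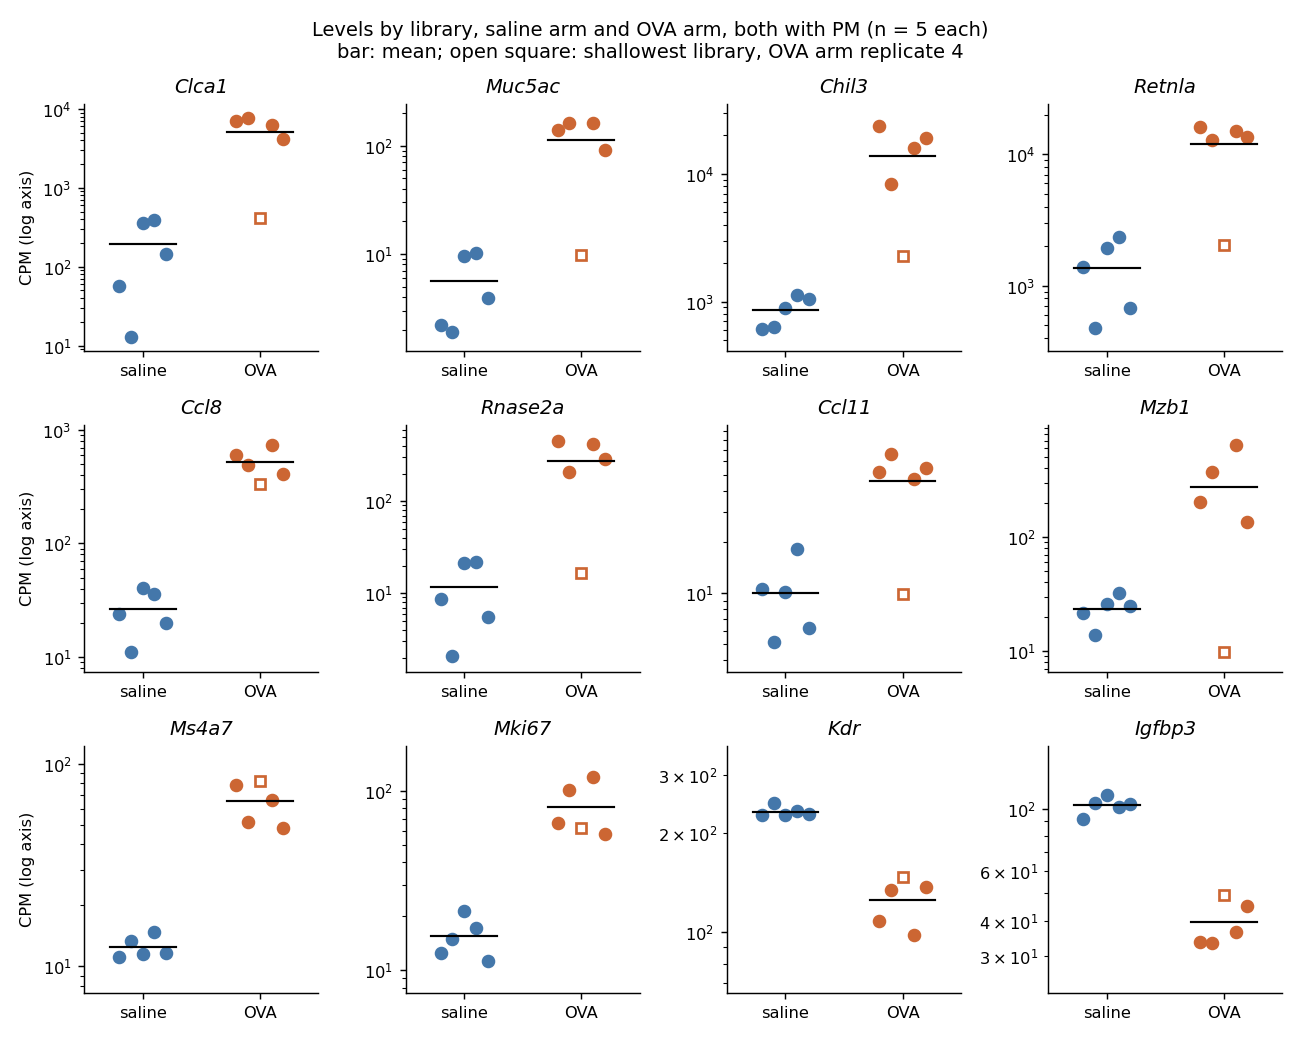
CPM on a log axis of 12 genes in each library of the saline arm and the OVA arm, both with PM (n = 5 each); bars are means and the open square is replicate 4 of the OVA arm. Clca1, Muc5ac, Retnla, Rnase2a, Ccl11 and Mzb1 of replicate 4 lie near or within the saline points, while its Ccl8, Ms4a7 and Mki67 lie with the other OVA libraries, and Kdr and Igfbp3 are lower in the OVA arm in all 5 libraries.

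Eosinophil genes rose in 7 of 8 tested cases, with a median log2 fold change of 1.82. Rnase2a, an eosinophil-associated ribonuclease from a family of near-identical copies, stood at 454.6, 206.1, 16.4, 422.8 and 287.4 CPM in the OVA libraries and at 8.63, 2.09, 21.1, 21.8 and 5.50 CPM in the saline libraries. Replicate 4 lay within the saline range and the other OVA libraries above it. The log2 fold change of Rnase2a was 4.68 ± 0.50 (SE, adjusted p = 6.57e-06, edgeR), and 4.85 without replicate 4.

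Ccr3, the eotaxin receptor of eosinophils, stood at 45.3, 22.6, 19.7, 50.9 and 38.4 CPM against 8.63, 7.23, 6.93, 13.0 and 9.08 CPM. Here replicate 4 was above the saline libraries, though its level rests on few counts. The log2 fold change of Ccr3 was 1.95 ± 0.21 (SE, adjusted p = 7.23e-06, edgeR). Prg2, the major basic protein of eosinophil granules, stood at 26.9, 5.41, 0, 27.9 and 8.39 CPM against 0.475 to 1.28 CPM, a log2 fold change of 3.80. Its 0 in replicate 4 allows up to 9.92 CPM, so that this library was below replicates 1 and 5 but could not be told from the other libraries. Alox15, a lipoxygenase of eosinophils and macrophages, had a log2 fold change of 2.37, Ear2 1.69, and Il5ra, the receptor of interleukin 5, 1.66. Siglecf, which mouse eosinophils share with alveolar macrophages, had 0.51, and it lost its call when all 22 libraries were fitted together (adjusted p = 0.202, edgeR). Epx, the eosinophil peroxidase, was below the filter with 85 counts in the OVA arm and 7 in the saline arm.

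Of the type 2 cytokines, alarmins and their receptors, 7 of 12 tested genes were called higher and none lower, with a median log2 fold change of 0.57. Il13 stood at 3.09, 1.93, 3.28, 5.77 and 1.53 CPM in the OVA libraries and at 0.392, 0.0951, 0.289, 0.555 and 0.0797 CPM in the saline libraries. The arms did not overlap, though replicate 4 rests on 1 count, and the log2 fold change was 2.78 ± 0.44 (SE, adjusted p = 0.000198, edgeR). Il10, a cytokine that dampens immune responses, stood at 1.84, 2.22, 3.28, 5.77 and 1.16 CPM against 0 to 0.380 CPM. It did not overlap either, with replicate 4 again resting on 1 count, and its log2 fold change was 3.03 ± 0.45 (SE, adjusted p = 0.000104, edgeR). Il13 and Il10 passed the expression filter only through their levels in the OVA libraries, replicate 4 included. Their tests and lack of overlap are therefore description only. The count of 7 includes Il13, and it leaves out those of the list's 19 members that were below the filter.

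Il4 and Il5 were below the expression filter. Il4 held 42, 16, 0, 4 and 23 counts in the OVA libraries and 7, 4, 1, 22 and 11 in the saline libraries, and with no filter its log2 fold change was 1.54 (adjusted p = 0.00431, edgeR). Il5 held 37 counts in the OVA arm and 41 in the saline arm, and its log2 fold change of 0.51 with no filter did not pass (adjusted p = 0.528, edgeR). The epithelial alarmin Il33 was far more abundant, at 230.5 ± 27.9 CPM in the OVA arm and 159.4 ± 19.1 CPM in the saline arm (SD, n = 5 each), with no overlap and a log2 fold change of 0.55 ± 0.10 (SE, adjusted p = 0.00088, edgeR). Its receptor Il1rl1 rose by 0.85, Crlf2, the receptor of the alarmin TSLP, by 0.59, and Il9r by 0.79.

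Of the CC chemokines, 7 of 16 were called higher and 1 lower, with a median log2 fold change of 0.87. Ccl11, which encodes eotaxin, stood at 52.0, 65.8, 9.84, 47.1 and 54.4 CPM in the OVA libraries and at 10.6, 5.13, 10.1, 18.3 and 6.21 CPM in the saline libraries. Replicate 4, with 3 counts, lay within the saline range, and the log2 fold change was 2.33 ± 0.27 (SE, adjusted p = 1.36e-05, edgeR). Ccl24, a second eotaxin, was at 0 in replicate 4 and at 12 to 32.7 CPM in the other OVA libraries, against 2.63 to 6.67 CPM, a log2 fold change of 1.89. The monocyte-attracting Ccl12 rose by 1.19, and the myeloid chemokines Ccl9 by 1.60 and Ccl6 by 1.13, each with no overlap of the arms. Ccl20, an attractant of cells with the receptor CCR6, rose by 1.15. Ccl3 was the gene called lower, at -0.83 ± 0.27 (SE, adjusted p = 0.0367, edgeR), and it lost its call with DESeq2 (adjusted p = 0.0967) and without replicate 1, 3 or 5 of the saline arm or replicate 2 or 6 of the OVA arm.

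Of 10 tested mast cell and basophil genes, 0 were called higher and 3 lower. Leaving out any 1 of the saline libraries gave 2 or 3 higher, counted over all 14 members of the list. The expression filter then asks for fewer libraries, and members not tested here, such as Mcpt1 and Mcpt2, can enter the fit. Gata2, a transcription factor of mast cells that endothelium also expresses, stood at 12.5 to 36.1 CPM in the OVA libraries and 50.7 to 64.7 CPM in the saline libraries, a log2 fold change of -1.06 ± 0.14 (SE, adjusted p = 3.56e-05, edgeR). Kit, the stem cell factor receptor, which endothelium expresses as well, had a log2 fold change of -0.46. Mcpt1 and Mcpt2, proteases of mucosal mast cells, were below the filter. Mcpt2 held 115, 74, 0, 8 and 64 counts in the OVA libraries against 27 in all in the saline libraries, and with no filter its log2 fold change was 3.88 (adjusted p = 2.33e-07, edgeR). Mcpt1 had 137 against 14 counts and a log2 fold change of 3.85 in the same fit (adjusted p = 1.99e-05, edgeR).

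B cell genes were called higher in 12 of 13 cases, with a median log2 fold change of 0.90, and plasma cell genes in 7 of 9, with a median of 1.90. The heavy chain genes of the list were not among the rows used here. Ms4a1, which encodes CD20, stood at 86.0, 123.6, 59.0, 110.5 and 92.6 CPM in the OVA libraries and at 45.0 to 52.2 CPM in the saline libraries. The arms did not overlap, and the log2 fold change was 1.06 ± 0.11 (SE, adjusted p = 7.02e-06, edgeR). Cd22 (1.04) and Blk (0.90), an inhibitory receptor and a kinase of B cells, behaved alike in that replicate 4 was the lowest OVA library and above the saline libraries.

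Mzb1, a folding factor of antibody-secreting cells, stood at 202.0, 368.6, 9.84, 643.9 and 136.2 CPM against 21.4, 13.8, 25.7, 32.0 and 24.9 CPM. Replicate 4, with 3 counts, was lower than every saline library, and the other OVA libraries were all above them. The log2 fold change was 3.57 ± 0.44 (SE, adjusted p = 2.16e-05, edgeR) and 3.75 without replicate 4. Irf4, the transcription factor of plasma cell formation, had a log2 fold change of 2.26 and Pou2af1, a B cell coactivator, 1.67.

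T cell genes were called higher in 7 of 14 cases and regulatory T cell and checkpoint genes in 7 of 11, with median log2 fold changes of 0.39 and 0.58. Cd4, the coreceptor of helper T cells, stood at 28.3, 29.3, 29.5, 24 and 26 CPM in the OVA libraries and at 17.1, 14.6, 10.4, 16.1 and 14.7 CPM in the saline libraries. The OVA libraries lay close together, replicate 4 included, though its level rests on few counts. The log2 fold change of Cd4 was 0.88 ± 0.12 (SE, adjusted p = 5.27e-05, edgeR). Cd8a, the coreceptor of cytotoxic T cells, had a log2 fold change of -0.17 and did not pass.

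The inhibitory receptor Ctla4 stood at 8.83, 9.76, 6.56, 9.61 and 12.3 CPM against 1.59 to 2.60 CPM, with no overlap and a log2 fold change of 2.30 ± 0.18 (SE, adjusted p = 5.78e-07, edgeR). The Ctla4 level of replicate 4 rests on few counts. Pdcd1, which encodes PD-1, had 2.50, Lag3, another inhibitory receptor, 1.86, and Icos, a costimulator of helper T cells, 1.07. Foxp3, the defining factor of regulatory T cells, had 0.32 and did not pass. Of 12 tested cytotoxic lymphocyte genes, 0 were called higher and 2 lower, against 13.2% and 9.57% of all tested genes. The number lower was 4 without replicate 2 of either arm. Gzma, a granzyme, stood at 57.0, 53.4, 124.6, 48.0 and 47.6 CPM against 103.1, 87.1, 73.9, 84.3 and 91.6 CPM. Replicate 4 was above every saline library and the other OVA libraries below them, with a log2 fold change of -0.68 (adjusted p = 0.00216, edgeR), and -0.76 without replicate 4. Ncr1, a receptor of natural killer cells, had -0.66 and -0.69 in the same fits, and replicate 4 was again above the saline libraries.

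Monocyte and interstitial macrophage genes were called higher in 10 of 13 cases, with a median log2 fold change of 1.26. The number was 10 without both libraries under 2 M counts as well, where 1 was called lower. Ms4a7, a marker of interstitial macrophages, stood at 78.2, 51.7, 82.0, 66.3 and 48.1 CPM in the OVA libraries and at 11.1, 13.3, 11.5, 14.7 and 11.6 CPM in the saline libraries. Replicate 4 was the highest OVA library, and the log2 fold change was 2.27 ± 0.15 (SE, adjusted p = 1.07e-07, edgeR). The complement subunit genes C1qa and C1qc had log2 fold changes of 1.52 and 1.42, and C3ar1, the receptor of complement fragment C3a, had 1.87. Alveolar macrophage genes were mixed, with 8 of 13 higher and 3 lower, and Chil3 is a member of that list too. The lower calls numbered 1 without replicate 1, 3 or 5 of the saline arm and 0 without replicate 1 of the OVA arm, and all 22 libraries fitted together gave 4 higher and 0 lower.

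Genes of antigen presentation rose. All 10 MHC class II genes and 7 of 10 MHC class I and immunoproteasome genes were called higher, with median log2 fold changes of 0.88 and 0.59. Ciita, the transactivator of class II genes, stood at 47.0, 47.7, 26.2, 73.0 and 40.8 CPM against 17.8 to 26.1 CPM, so that the lowest OVA library only just cleared the highest saline library. That lowest level, in replicate 4, rests on few counts. The log2 fold change of Ciita was 1.09 ± 0.14 (SE, adjusted p = 3.84e-05, edgeR). H2-Oa, a class II regulator of B cells, had 1.14, Tap1, the peptide transporter of class I loading, 0.88, and H2-K1, a class I heavy chain, 0.69.

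Every one of the 18 mitosis and spindle genes was called higher, with a median log2 fold change of 2.05, and so were 14 of 18 DNA replication genes, with a median of 0.71. Mki67, the proliferation marker Ki-67, stood at 66.5, 101.4, 62.3, 119.2 and 57.6 CPM in the OVA libraries and at 12.4, 14.9, 21.4, 17.2 and 11.2 CPM in the saline libraries. Replicate 4 lay among the OVA libraries, and the log2 fold change was 2.42 ± 0.19 (SE, adjusted p = 7.6e-07, edgeR). Tpx2, a spindle assembly factor, had 2.04, Cdc20, an activator of the anaphase-promoting complex, 1.82, Rrm2, a subunit of ribonucleotide reductase, 1.90, and Ccne1, a cyclin of S phase entry, 1.73.

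Neutrophil genes and neutrophil attractants were called no more often than all genes. Of 10 neutrophil genes 1 was called higher, and of 13 NF-kB-driven cytokines and neutrophil attractants 1 was called higher, with medians of -0.06 each. S100a8, an abundant granulocyte protein, stood at 68.2, 109.3, 163.9, 105.7 and 74.4 CPM against 99.9, 126.0, 80.2, 115.4 and 108.5 CPM. The arms overlapped, and the log2 fold change of -0.22 ± 0.16 (SE) did not pass (adjusted p = 0.388, edgeR). The called genes were Retnlg, a resistin-like molecule of neutrophils (1.71), and Tnfaip3, the NF-kB inhibitor A20 (0.47). Retnlg belongs to the same family as Retnla, and its reads may be shared with it. Without replicate 5 of the saline arm, 2 neutrophil genes and 3 of the cytokines and attractants were called higher, among them Cxcl1 (0.71, adjusted p = 0.0425, edgeR).

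Interferon-stimulated genes were called higher in 11 of 22 cases, with a median log2 fold change of 0.35. Mx1, an antiviral GTPase, stood at 18.1, 16.4, 9.84, 10.6 and 16.7 CPM against 5.04 to 8.37 CPM, with no overlap and a log2 fold change of 1.41 ± 0.15 (SE, adjusted p = 6.29e-06, edgeR). Its lowest OVA level, in replicate 4, rests on few counts, and so does the lack of overlap. Zbp1, a sensor of nucleic acids, had 0.97, and Cxcl9, a chemokine induced by interferon gamma, 1.90. Interferon gamma itself (Ifng) was below the filter with 28 and 41 counts. Of the acute-phase and airway defence proteins, 4 of 15 were called higher and 4 lower. Pigr, the transporter of secreted IgA, had a log2 fold change of 1.42 and Slpi, a protease inhibitor of airway fluid, 2.51. Replicate 4 was below every saline library in both, and without it the values were 1.60 and 2.75. Hp, which encodes haptoglobin, stood at 852.4 to 1203 CPM against 1538 to 1864 CPM, a log2 fold change of -0.81 ± 0.11 (SE, adjusted p = 6.18e-05, edgeR).

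**Figure D3:**
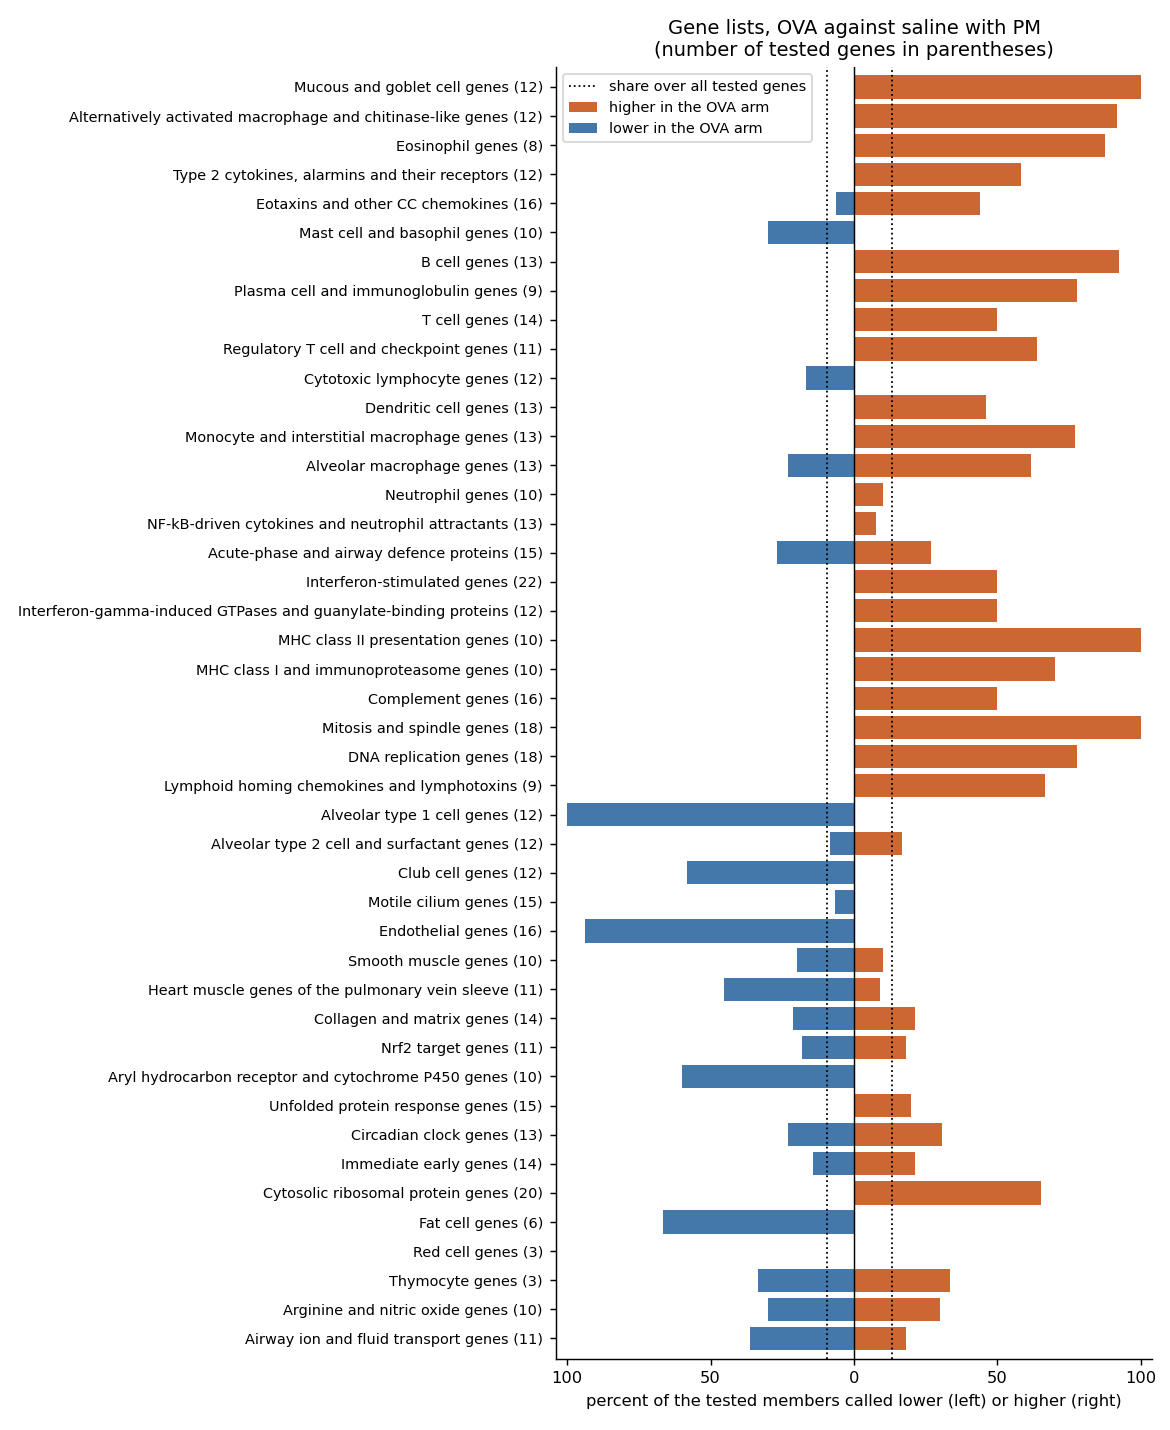
Share of the tested members of 44 gene lists that were called higher (right, orange) or lower (left, blue) in the OVA arm than in the saline arm, both with PM, in percent; dotted lines give the shares over all tested genes, 13.2% higher and 9.57% lower. Mucous, MHC class II and mitosis genes reach 100% on the right and alveolar type 1 cell genes on the left.

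Genes of the alveolar wall were lower in the OVA arm. All 12 alveolar type 1 cell genes and 15 of 16 endothelial genes were called lower, each with a median log2 fold change of -0.62, against a median of -0.01 over all genes. The arms did not overlap in 8 of the 12 and in 11 of the 16. Over all tested genes, 5.79% lay below the saline libraries in every OVA library. Kdr, the main receptor of vascular endothelial growth factor, stood at 108.4, 134.3, 147.5, 98.0 and 137.5 CPM in the OVA libraries and at 226.4, 246.3, 227.8, 233.3 and 228.1 CPM in the saline libraries. Replicate 4 was the highest OVA library, below every saline library. The log2 fold change of Kdr was -0.91 ± 0.10 (SE, adjusted p = 7e-06, edgeR).

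Cdh5, the cadherin of endothelial junctions, stood at 203.8 ± 23.3 CPM against 344.3 ± 14.0 CPM (SD, n = 5 each), a log2 fold change of -0.78 ± 0.09 (SE, adjusted p = 1.03e-05, edgeR). Eng, a receptor of the TGF-beta family on endothelium, had -0.91. Vwf, which marks large vessels, had 0.04 and was the endothelial gene not called. Among alveolar type 1 cell genes, Vegfa, the growth factor that Kdr binds, had -0.70, Igfbp2 -0.63, and Aqp5, a water channel, -0.57. Of 12 alveolar type 2 cell genes, 2 were called higher and 1 lower, near the shares over all genes (13.2% and 9.57%). Without replicate 4 of the OVA arm, 4 were higher and 3 lower. The gene called lower with all 10 libraries was Sftpb, at -0.36 ± 0.13 (SE, adjusted p = 0.0461, edgeR). Sftpb lost its call with no filter (adjusted p = 0.0513, edgeR) and without replicates 1, 3, 5 or 6 of the saline arm or 1, 2, 5 or 6 of the OVA arm.

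Club cell genes were called lower in 7 of 12 cases and cytochrome P450 and related genes in 6 of 10. The latter number was 3 without replicate 5 of the saline arm or replicate 1 or 6 of the OVA arm, and 3 when all 22 libraries were fitted together. Pon1, a paraoxonase, stood at 20.2, 36.6, 75.4, 13.5 and 25.4 CPM in the OVA libraries and at 72.5, 108.2, 106.8, 74.2 and 109.0 CPM in the saline libraries. Replicate 4 lay within the saline range and the other OVA libraries below it, and the log2 fold change was -1.77 ± 0.21 (SE, adjusted p = 1.68e-05, edgeR). Cyp2f2, the main cytochrome P450 of mouse club cells, had -0.93 with no overlap. Cyp1a1, which the aryl hydrocarbon receptor induces, had 0.14 ± 0.16 (SE) and did not pass (adjusted p = 0.59, edgeR). Of 15 motile cilium genes, 1 was called lower and 0 higher, against 9.57% and 13.2% of all tested genes.

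The 10 largest falls with no overlap of the arms were mostly genes of low level. Igfbp3, a binding protein of insulin-like growth factors, was the most abundant of them, at 33.7, 33.2, 49.2, 36.5 and 45.1 CPM in the OVA libraries and 91.9, 105.0, 111.7, 101.7 and 103.7 CPM in the saline libraries. The arms were far apart in every library, with a log2 fold change of -1.44 ± 0.10 (SE, adjusted p = 2.43e-07, edgeR). Hpx, which encodes the heme carrier hemopexin, stood at 1.03, 1.45, 0, 0 and 0.490 CPM against 10.7, 3.23, 6.06, 5.75 and 2.95 CPM. Its 0 in replicate 4 could hide a level of 9.92 CPM, and the log2 fold change was -2.61 ± 0.44 (SE, adjusted p = 0.000316, edgeR). Asgr1, a subunit of the asialoglycoprotein receptor, whose promoter window is printed above, stood at 0.957, 1.16, 3.28, 0.961 and 1.35 CPM against 5.23, 5.13, 10.4, 4.06 and 6.21 CPM, with a log2 fold change of -2.27 ± 0.29 (SE, adjusted p = 3.32e-05, edgeR). The level of Asgr1 in replicate 4 rests on few counts. Hpx and Asgr1 passed the expression filter only through their levels in the saline libraries. Their tests and lack of overlap are therefore description only.

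Spon2, an extracellular matrix protein, had a log2 fold change of -1.54, and Adm, the vasodilator adrenomedullin, -1.38. The other falls were Ccnjl (-1.71), a cyclin-like gene, Ccdc184 (-1.56), Ptprr (-1.49), a tyrosine phosphatase, Msx1 (-1.44), a homeobox factor, and Gp5 (-1.41), a platelet glycoprotein gene. These lay between 0 and 1.92 CPM in the OVA libraries. Replicate 4 held 0 counts in these genes and in Adm, and a 0 there allows up to 9.92 CPM. Their lack of overlap rests in part on such 0 counts. None of them could pass the expression filter through the OVA libraries alone, and their tests are description only.

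Markers of tissue that a piece of lung can carry along were also lower in several OVA libraries. Fat cell genes were called lower in 4 of 6 cases, and their summed level was 20.4 to 78.7 CPM in the OVA arm and 46.0 to 105.9 CPM in the saline arm. Adipoq, the fat cell hormone adiponectin, had a log2 fold change of -1.63, Cfd, which encodes adipsin, -1.67, and Retn, which encodes resistin, -2.12. Heart muscle genes, which the mouse expresses in the pulmonary veins, were called lower in 5 of 11 cases and higher in 1, with summed levels of 109.1 to 242.6 CPM against 166.7 to 263.1 CPM. Myl7, an atrial myosin light chain, had -1.65 and Tnni3, cardiac troponin I, -1.30. Fat cell genes lower numbered 2 with DESeq2, without replicate 5 of the saline arm and without replicate 1 of the OVA arm. Heart muscle genes lower numbered 1 with DESeq2, 2 without replicate 1 of the OVA arm and 3 without its replicate 6. Thymocyte genes summed to 19.7 to 38.4 CPM in the OVA arm and 27.2 to 31.1 CPM in the saline arm, with 1 of 3 tested called higher and 1 lower, while Rag1 and Ptcra held at most 4 counts in an arm. Red cell genes summed to 76.2 to 155.6 CPM and 95.7 to 226.9 CPM, with 0 of 3 tested called. Alas2, the heme synthesis enzyme of red cells, made up most of that sum, with means of 100.3 and 127.5 CPM, while 4 globin genes of the list were listed at 0 in each library. The part of these tissues in the falls above was not tested.

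By the GENCODE M21 annotation of GRCm38 (mm10), 5 of these genes, all protein-coding, span 145003817 to 145032776 on chromosome 3 (Clca1), 82115185 to 82116799 on chromosome 11 (Ccl8), 53631324 to 53634702 on chromosome 11 (Il13), 75932827 to 75978458 on chromosome 5 (Kdr) and 7206086 to 7213923 on chromosome 11 (Igfbp3).

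The same arms were also compared in the 12 libraries without PM, none of which is shared with the comparison above. There, edgeR called 2100 genes higher (14.4%) and 1356 lower (9.27%) of 14632, 23.6% in all. Of 14217 genes tested in both comparisons, 1410 were called higher in both, which is 75.4% of those called higher with PM and 69.0% of those without. Lower in both were 740, or 54.3% and 55.3%, and 3 genes were called in opposite directions.

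The test of the difference between the OVA effects in a fit of all 22 libraries called 14 of 14942 genes (0.0937%). In all 14 the signed log2 fold change was lower with PM than without. With PM, Orm1 (-1.48), Orm2 (-2.16) and Irg1 (-1.09) were called lower in the OVA arm, and the change of Orm1 was in size no smaller than its 1.35 without PM. Irg1 lost that call with DESeq2 (-0.80, adjusted p = 0.236) and without replicate 5 of the saline arm or replicate 2 or 6 of the OVA arm. In the difference no gene was called the other way, although 571 genes had an unadjusted p under 0.05 in edgeR, 211 of them with a higher log2 fold change with PM, and DESeq2 called 23 and 0. The 14 were acute-phase and defence proteins (Orm2, Saa3, Orm1, Lcn2, Serpina3n), chemokines (Cxcl3, Cxcl5, Ccl7, Cxcl1, Cxcl13), the cytokine Tnf, and Irg1, Rsad2 and Steap4. Sample numbers of the libraries with PM come from another series than those without, and differences in preparation cannot be told apart from PM when these libraries are compared.

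Saa3, an acute-phase protein that the lung also makes, had its lowest level in the saline arm without PM. On the scale of all 22 libraries it stood at 7.94 ± 2.71 CPM in the saline arm without PM (SD, n = 6), 158.3 ± 85.9 CPM in the OVA arm without PM (SD, n = 6), 340.0 ± 179.8 CPM in the saline arm with PM (SD, n = 5) and 199.2 ± 108.2 CPM in the OVA arm with PM (SD, n = 5). The PM-free saline libraries, at 5.21 to 11.9 CPM, lay below all others, and the other groups overlapped. With PM its log2 fold change between the arms was -0.77 ± 0.36 (SE, adjusted p = 0.148, edgeR), without PM it was 4.35, and the difference was -5.10 ± 0.58 (SE, adjusted p = 2.6e-05, edgeR). Saa3 was called lower with PM without replicate 6 of the saline arm (-1.0, adjusted p = 0.025, edgeR) or replicate 5 of the OVA arm (-1.09, adjusted p = 0.0327, edgeR).

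Cxcl3, a neutrophil-attracting chemokine, followed the same order, with means of 0.609 CPM and 9.03 CPM without PM in the saline and OVA arms and of 17.5 CPM and 14.4 CPM with PM. Its difference was -3.94 ± 0.38 (SE, adjusted p = 3.26e-06, edgeR). Irg1, the macrophage enzyme that makes itaconate, had means of 0.199, 2.78, 5.32 and 4.66 CPM in the same order and a difference of -4.66 ± 0.53 (SE, adjusted p = 2.6e-05, edgeR). Cxcl1 had 3.52, 23.1, 14.7 and 22.3 CPM, and there the OVA arm had the higher mean with PM as well, with a difference of -2.03 ± 0.35 (SE, adjusted p = 0.0115, edgeR). Lcn2, the iron-sequestering lipocalin, had 255.0, 957.0, 1515 and 1288 CPM and a difference of -2.14 ± 0.38 (SE, adjusted p = 0.014, edgeR).

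Orm2, which encodes an orosomucoid of the acute phase, was lower in the OVA arm with PM. It stood at 1.40, 3.87, 0, 0 and 0.857 CPM against 15.7, 6.18, 11, 6.45 and 3.82 CPM, with a log2 fold change of -2.16 ± 0.46 (SE, adjusted p = 0.00226, edgeR). With PM it passed the expression filter only through its levels in the saline libraries, so that this test is description only. In the saline arm without PM it held 5 counts over 6 libraries. Its difference of -5.93 ± 0.96 (SE, adjusted p = 0.00775, edgeR) was the largest of the 14, and it rests on low counts. Cxcl13, the chemokine that draws B cells, had 8.08, 60.9, 31.6 and 57.9 CPM and a difference of -2.03 ± 0.34 (SE, adjusted p = 0.0115, edgeR).

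Cxcl1, Cxcl13, Cxcl3, Irg1, Lcn2, Orm2 and Saa3 were called in the difference under each of the alternatives tried. Leaving out replicate 1 of the PM-free saline arm, replicate 5 of the saline arm with PM or replicate 6 of the OVA arm with PM gave 8 calls. Leaving out replicates 5 or 6 of the PM-free saline arm, or replicate 1 of the saline arm with PM, gave 9, and leaving out replicate 2 of the PM-free OVA arm gave 26. Mucous genes gave no call in this test: Muc5ac had a log2 fold change of 7.13 without PM and a difference of -2.67 ± 0.82 (SE, adjusted p = 0.687, edgeR).

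**Figure D4:**
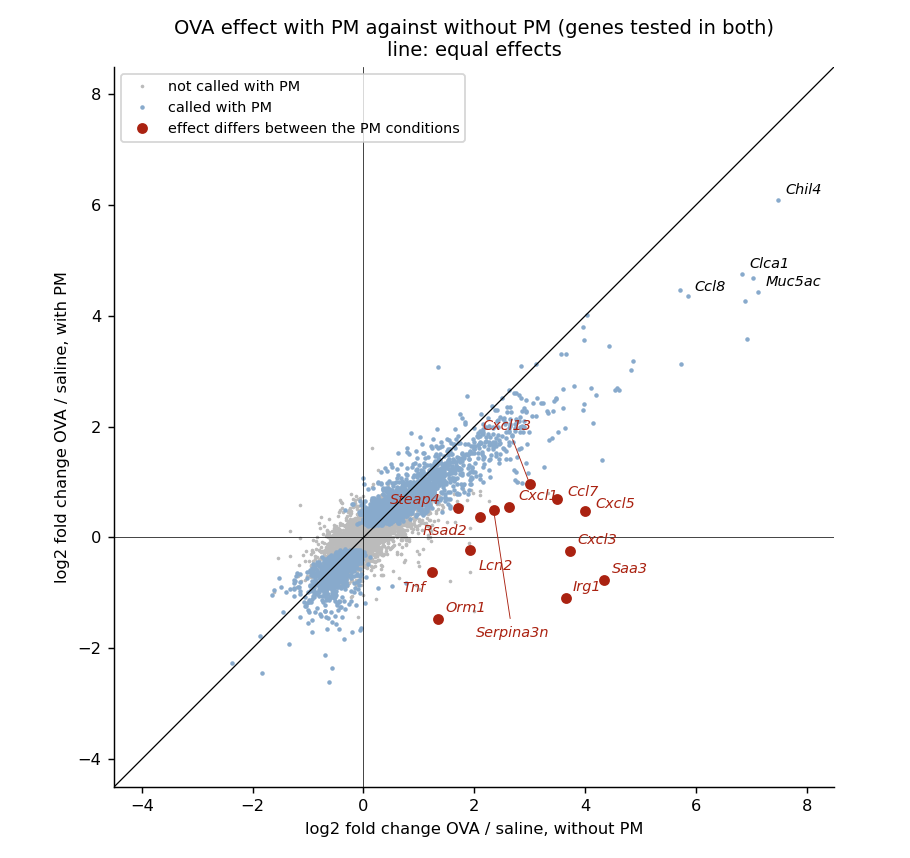
Log2 fold change between the OVA and the saline arm without PM (x axis) and with PM (y axis) for the 14217 genes tested in both; blue points were called with PM, red points are the genes called in the test of the difference, and the line marks equal effects. The red points lie below the line; Orm2 is not drawn, since it was not tested without PM.

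**Figure D5:**
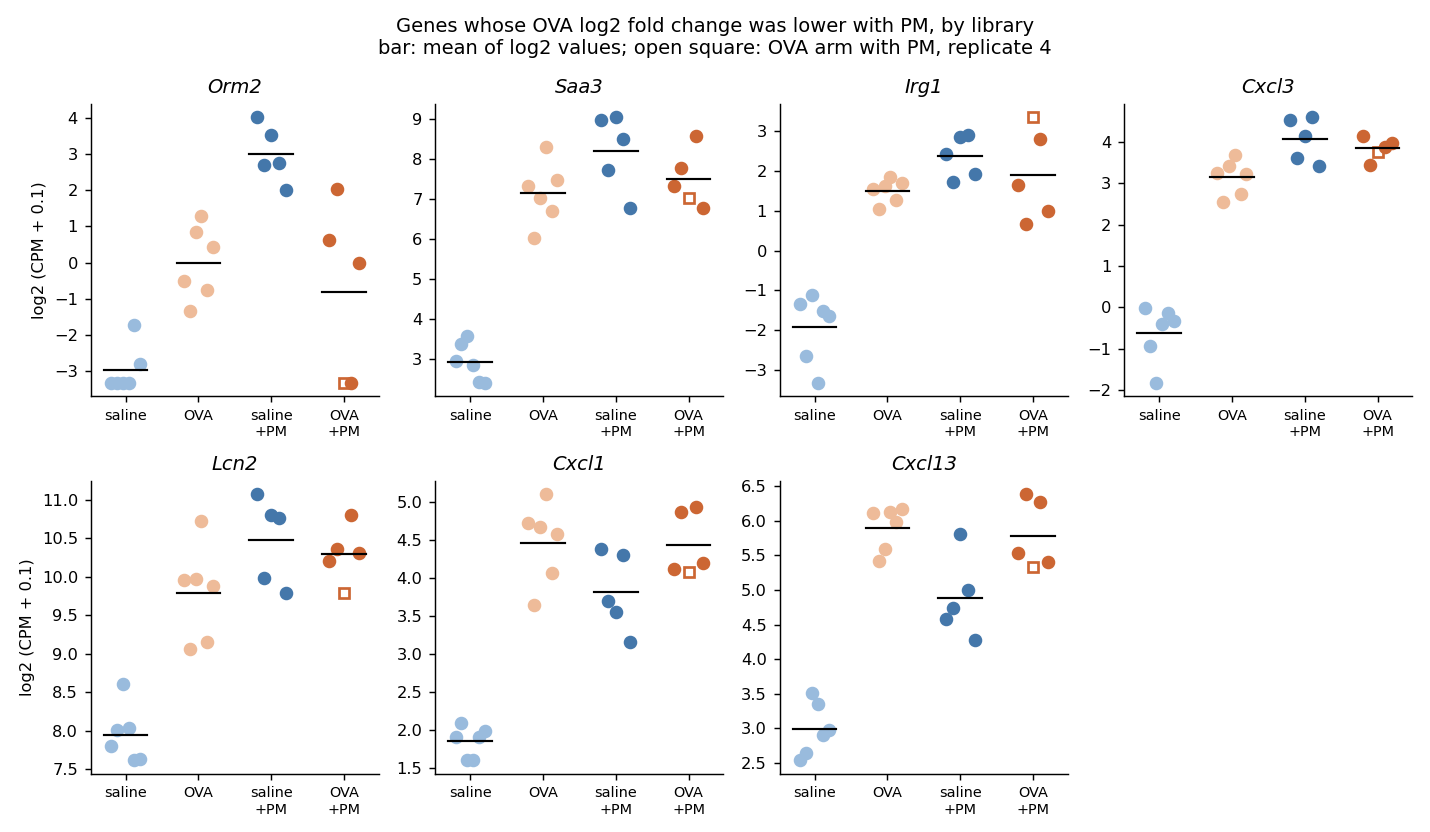
Levels of the 7 genes called in the difference under each alternative, as log2 of CPM plus 0.1 on the scale of all 22 libraries, by library in the 4 groups; bars are means of the log2 values and the open square is replicate 4 of the OVA arm with PM. The saline libraries without PM have the lowest mean in each panel, and the groups with PM overlap in each panel.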

How the data were processed

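Counts per gene were taken as the authors deposited them, in 3 tables of raw read counts. Per the labels' protocols, stranded libraries were made from 400 ng of total RNA and read single-end for 75 cycles. Per the submitters' processing notes, bcl2fastq made the read files, the build was mm10, and the aligner and the counting tool are not given in the sources used here. Columns shared between the tables were identical (12 of 12). Of 24421 gene rows, 16 had become dates and were left out (0.155% to 0.195% of the counts of a library with PM), and 24010 of the other 24405 matched GENCODE M21. The authors' normalised values and statistics were not used.

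Genes were filtered with edgeR (minimum count 10, minimum total 15), scaled by trimmed means of M values and tested with the quasi-likelihood F test in R 4.3.3 (edgeR 4.0.16, limma 3.58.1, DESeq2 1.42.0), with Benjamini-Hochberg adjustment over all genes tested at 0.05. The standard error of a log2 fold change is its size divided by the square root of F. The fits used 10 libraries (with PM), 12 (without PM) and 22 (difference), and the procedure was tested on simulated counts. Replicates with PM differed by a chi-square of 2.57 to 18.2 per degree of freedom, so that no library was a copy of another.

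The members and the 44 lists were chosen with earlier results of these data known. Named genes were the 10 largest changes each way at 1 CPM or more on average and with no overlap, the 3 smallest p of each list, all tested members of 5 type 2 lists, 13 set genes, and the largest differences with and without PM. A few genes that the rule takes are not reported here. Others were named after their values were seen. Cd8a, Foxp3, Vwf, the genes below the filter and, among the 14 of the difference, those past the largest 5 are such genes. Alternatives were other scaling, filters and tools, sample weights, a per-library offset for transcript length and GC share, a block over replicate numbers and leaving out libraries. The fit over the libraries of the block without its term, and the offset beyond its first use, were added after seeing the data. Figures used Python 3.11.15 with matplotlib 3.10.9.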

Additional observations from a re-analysis of the deposited data

Results flagged for a closer look

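In 33 of 250 groups of 5 libraries, over the 125 genes followed through the alternatives, the highest or lowest library stood apart. Its gap to the nearest library, as a share of the group's range, was above the critical value of 0.71. Chance flags about 1 in 20 such groups where the libraries are equally precise, and replicate 4 of the OVA arm held only 0.302 M counts. Over the 378 groups of all genes of the rule, 51 did so (13.5%), and in 36 of these the library was replicate 4 of the OVA arm. Shallow depth alone can set replicate 4 apart in genes of low level, so that this share cannot be read against that rate. Replicate 4 was the lowest OVA library in Retnla (0.892), Tnfaip3 (0.894), Pigr (0.879), Adm (0.859), Foxa3 (0.851), Gp5 (0.84), Ptprr (0.838), Lag3 (0.837), Pdcd1 (0.831), Ccl11 (0.823), Ccdc184 (0.814), Ccl24 (0.807), Chil4 (0.799), Agr2 (0.797), Slc26a4 (0.795), Muc5ac (0.793), Il5ra (0.789), Clca1 (0.784), Fcgbp (0.77), Rnase2a (0.761) and Slc5a1 (0.737). In Adm, Foxa3, Gp5, Ptprr, Lag3, Pdcd1, Ccdc184, Ccl24 and Il5ra it held 0 counts. It was the highest OVA library in Gzma (0.812), Sftpb (0.787), Aqp5 (0.776), Asgr1 (0.736) and Cyp1a1 (0.712). Of the other OVA libraries, replicate 5 was highest in Il9r (0.732) and replicate 6 lowest in Cxcl9 (0.747). In the saline arm, replicate 2 was lowest in Tap1 (0.886), Dbp (0.839), Trem2 (0.765) and Rplp0 (0.742), and replicate 5 was highest in Slc5a1 (0.816).

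The signed log2 fold change between the arms was lower with PM than without PM, by the test of the difference itself, in 14 genes, of which Orm1, Orm2 and Irg1 were called lower in the OVA arm with PM. Irg1 lost the call with PM under DESeq2 (-0.80, adjusted p = 0.236). The differences of the log2 fold changes were -5.93 (Orm2), -5.10 (Saa3), -4.66 (Irg1), -3.94 (Cxcl3), -3.45 (Cxcl5), -2.83 (Orm1), -2.77 (Ccl7), -2.14 (Lcn2), -2.03 (Cxcl1), -2.03 (Cxcl13), -1.86 (Serpina3n), -1.82 (Tnf), -1.73 (Rsad2) and -1.17 (Steap4). The edgeR adjusted p ranged from 3.26e-06 (Cxcl3) to 0.0465 (Cxcl5).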

How the results depend on the processing

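Of 119 followed genes called with PM, 110 kept the call in all 22 alternatives and none reversed. Adipoq, Ccl3, Cfd, Creb3l1, Irg1, Kit, Sftpb, Siglecf and Tnni3 lost it in at least 1. Of 6 uncalled genes, 4 were called in at least 1 alternative. These were Cxcl1 (0.65, adjusted p = 0.0348, edgeR), Cxcl5 (0.86, adjusted p = 0.00254, edgeR) and S100a8 (-0.38, adjusted p = 0.0161, edgeR) with the replicate block, Cxcl1 without replicate 1 or 5 of the saline arm, and Saa3 without replicate 6 of the saline arm or replicate 5 of the OVA arm. Sample weights turned Cxcl5 to -0.01 and Cyp1a1 to -0.02. Of 64 counts of list members, 34 moved by over 1.5 times in at least 1 alternative, many of them counts of 0 to 3. Each count covers every list member that passed the filter of that fit, which can differ from the members tested in the main fit. Cytotoxic lymphocyte genes lower were 4 with library totals or the offset and 5 with sample weights, against 2. In one fit of all 22 libraries, ribosomal protein genes higher were 2 against 13, and heart muscle genes lower 1 against 5. With the block, 3 of the NF-kB list were higher and 2 neutrophil genes lower, against 1 and 0. Among called genes, leaving out 1 library ended the call of Adipoq (replicate 5 of the saline arm, or 1 or 6 of the OVA arm), Creb3l1 (1 or 2 of the OVA arm) and Irg1 (5 of the saline arm, or 2 or 6 of the OVA arm). The higher and lower calls were 1648 and 1080 with DESeq2, 1509 and 1922 with library totals, 2060 and 1947 with the length and GC offset (51.4% higher), and 2185 and 1742 with sample weights. With the offset and without the libraries under 2 M counts, 2199 were lower. Leaving out 1 library gave 1385 to 2013 higher and 874 to 1470 lower, the lowest counts without replicate 1 of the OVA arm. In the PM-free libraries, the offset gave 2505 lower. For the difference, DESeq2 called 23 lower, and leaving out 1 library gave 8 to 26 lower and 0 to 1 higher. Same-numbered libraries did not deviate together (correlations -0.0381 to 0.106), and no OVA library correlated best with its own number. With so few shared numbers and such unequal depths, this cannot settle whether the numbers mark a pairing. The replicate block gave 1804 and 1279 calls over 8 libraries (1817 and 1343 without it), 2384 and 1854 without PM, and 0 and 10 for the difference. Ribosomal protein genes called higher fell from 13 of 20 to 7 without the libraries under 2 M counts. The cause of these shifts was not tested. The depth of replicates 4 and 5 of the OVA arm limits genes under 9.92 and 2.66 CPM there.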

Other observations

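Circadian clock genes differed between the arms in both directions, with 4 of 13 called higher and 3 lower. Arntl, which encodes the clock activator BMAL1, stood at 11.3, 8.51, 13.1, 9.61 and 10.4 CPM in the OVA libraries and at 20.9, 21.1, 17.3, 19.6 and 19.4 CPM in the saline libraries, with no overlap and a log2 fold change of -0.96 ± 0.12 (SE, adjusted p = 2.8e-05, edgeR). Dbp, a clock output gene, stood at 123.6 to 186.9 CPM against 62.3 to 82.4 CPM, with a log2 fold change of 0.87, and the clock repressor Per2 had 0.73. Without PM the values of Arntl, Dbp and Per2 were -0.96, 0.93 and 0.44, each past the threshold. The time of day of sampling is not given in the sources used here.

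Airway ion and fluid transport genes were called higher in 2 of 11 cases and lower in 4. Slc5a1, a sodium and glucose cotransporter, rose with no overlap (34.0 ± 10.8 CPM against 11.3 ± 2.20 CPM, SD, n = 5 each, log2 fold change 1.69). Slc26a9, an anion channel, had -0.95 and Scnn1g, a subunit of the epithelial sodium channel, -0.64, both with no overlap. Of 10 arginine and nitric oxide genes, 3 were called higher and 3 lower. Slc7a2, a transporter of arginine, had a log2 fold change of 1.28 and Nos3, the endothelial nitric oxide synthase, -0.90.

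Cytosolic ribosomal protein genes were called higher in 13 of 20 cases with PM and in 0 of 20 without PM, while 0 of them were called in the difference. With PM the number was 7 without the libraries under 2 M counts, 6 to 8 without replicate 3, 5 or 6 of the saline arm or replicate 1 of the OVA arm, and 2 when all 22 libraries were fitted together. Rplp0 had a log2 fold change of 0.62 with PM and 0.38 without.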
